A study of Mus musculus with 9 samples.

Results

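Carbonic anhydrases are zinc enzymes that turn carbon dioxide and water into bicarbonate and a proton, and back. The 10 genes described here are Car2, Car3, Car4, Car5b, Car8, Car9, Car11, Car12, Car13 and Car14. They were taken by symbol from a table of RNA-seq counts with 24503 gene rows. They were selected on their symbols and counts in that table, with fold changes of these data already known, that of Car8 among them. The values below therefore describe these genes, and the p-values beside them place each gene in the fit of the whole table and are no independent evidence that the family moves. The table holds 16 carbonic anhydrase symbols in all, and the 6 not on the list are Car1, Car5a, Car6, Car7, Car10 and Car15. Those 6 had few reads, between 4 counts for Car10 and 144 counts for Car15 summed over all 9 libraries. The list was no cut on counts: Car4 and Car9, with 11 and 28 counts, are on it, while Car7 (89 counts) and Car15 are not. Car7 and Car15 passed the filter on low counts and were tested. Of the 10 listed genes, 8 passed the filter on low counts and were tested. Car4 and Car9 did not pass, and for them counts are given. Car14 passed through its shNT libraries, of which 3 reached the filter's level, against 0 shRad21_2 and 2 shRad21_1 libraries.

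The cells were primary neural stem cells from mouse cortex at embryonic day 13.5, enriched as neurospheres and kept on laminin in FGF and EGF. Cells of every group were wild type with floxed Phf2 alleles, and each group received a virus with 1 short hairpin RNA. The groups were shRad21_2 and shRad21_1, 2 hairpins against Rad21, and shNT, a non-targeting hairpin, with 3 libraries each. RAD21 is the subunit of the cohesin ring that closes it around DNA, and cohesin holds sister chromatids together and folds chromosomes into loops. The labels state neither how long after infection the cells were taken nor whether a group's libraries are separate cultures. The p-values thus rest on library-to-library spread that may be technical only.

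The family divides by where its proteins sit. Car2, Car3 and Car13 are cytosolic, Car5b is mitochondrial, Car4 is tethered to the outer membrane surface by a lipid anchor, and Car9, Car12 and Car14 span the membrane with the catalytic domain outside. Car8 and Car11 are carbonic anhydrase-related proteins that have lost the catalytic zinc site. In the brain, Car2 is known from oligodendrocytes, astrocytes and choroid plexus, and Car8 from Purkinje cells, where it binds the inositol trisphosphate receptor that releases calcium from stores. Car9 is a classical target of hypoxia-inducible factor.

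Rad21 had 82.0, 91.2 and 82.5 CPM (each count set against its library's TMM-scaled total) in the shRad21_2 libraries and 187, 174 and 178 CPM in the shRad21_1 libraries, against 531, 450 and 456 CPM in the shNT libraries. Rad21 was therefore lower under both hairpins and lower under shRad21_2 than under shRad21_1, with log2 fold changes of -2.49 and -1.41 against shNT and -1.08 between the hairpins. Library totals ran from 34780003 to 46644607 counts, and 3 counts amounted to 0.0664 to 0.0880 CPM. On the leading principal component (62.7% of the variance), the shRad21_2 libraries lay between 40.6 and 44.9. Replicate 1 of shRad21_1 lay at 9.97, toward them, and replicates 2 and 3 at -15.5 and -15.7, against -38.3 to -31.1 for the shNT libraries. Replicates 2 and 3 were close to each other in shRad21_1 and in shNT, with a chi-square per gene of 2.17 and 3.13, against 22.2 to 67.5 for the other pairs within a group. They still differed by more than sampling noise, which does not show that they are separate cultures. The main fit kept them apart. Calls of carbonic anhydrase genes that change without shRad21_1 replicate 1, or with those pairs summed, are given with both values. The neural stem cell markers were all present: 14 of 14 were tested, and their summed level ran from 8097 to 9016 CPM in shRad21_2, from 7062 to 8247 CPM in shRad21_1 and from 8666 to 8933 CPM in shNT.

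Promoter windows were matched for 6 of the 10 members, and not for Car2, Car3, Car8 or Car13. Those of the 3 transmembrane enzymes are shown. In RNA, Car12 was higher under shRad21_2, Car14 was lower there, and Car9 was near the limit of counting. Each window is the RefSeq sequence (GRCm38.p6) from 250 bases before to 50 bases after the annotated start, read in the gene's direction. Capitals mark the letters ACGTG, a form of the core of the hypoxia response element, on either strand (CACGT where it lies on the other strand). The form GCGTG was not searched. The Car12 window is chr9:66713436-66713735 on the plus strand, the Car9 window chr4:43506776-43507075 on the plus strand and the Car14 window chr3:95904636-95904935 on the minus strand.
Car12: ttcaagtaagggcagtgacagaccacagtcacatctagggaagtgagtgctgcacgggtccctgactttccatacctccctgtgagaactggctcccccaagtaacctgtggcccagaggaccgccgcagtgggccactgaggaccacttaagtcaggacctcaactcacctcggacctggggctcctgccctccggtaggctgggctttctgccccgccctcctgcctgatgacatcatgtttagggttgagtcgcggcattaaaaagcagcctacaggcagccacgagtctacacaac
Car9: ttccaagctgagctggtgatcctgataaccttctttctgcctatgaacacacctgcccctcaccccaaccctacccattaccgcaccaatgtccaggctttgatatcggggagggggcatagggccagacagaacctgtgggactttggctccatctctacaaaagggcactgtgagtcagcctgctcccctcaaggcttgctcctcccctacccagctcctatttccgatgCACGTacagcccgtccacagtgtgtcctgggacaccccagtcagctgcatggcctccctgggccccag
Car14: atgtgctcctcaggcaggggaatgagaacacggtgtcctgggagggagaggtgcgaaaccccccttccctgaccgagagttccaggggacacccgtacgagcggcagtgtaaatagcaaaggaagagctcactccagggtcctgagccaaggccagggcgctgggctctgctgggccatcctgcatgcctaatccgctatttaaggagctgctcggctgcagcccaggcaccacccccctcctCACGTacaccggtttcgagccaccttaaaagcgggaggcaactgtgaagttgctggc

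In Car9 and Car14 the match lay on the other strand. As read here, CACGT began 18 bases before the start in Car9 and 7 bases before it in Car14. Neither ACGTG nor CACGT was found in the Car12 window. On either strand, ACGTG stands in 19.6% of the 32851 windows in the RefSeq table. TATAAA (in 13.6% of all windows), the core of the CTCF motif (3.43%), and TTCNNNGAA, the STAT palindrome (8.30%), were searched on both strands, and none of them was found in these 3 windows. The windows had 58.3% (Car12), 58.3% (Car9) and 61.0% (Car14) G and C, against a median of 52.7%, and 9, 5 and 13 CG dinucleotides, against a median of 7. Of the other members, windows were matched for Car4, Car5b and Car11. Car4 held CACGT, starting 3 bases after the start, and TATAAA 43 bases after it. Car5b and Car11 held none of the letters searched. A match describes the sequence and is not evidence of a bound site.

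The summed level of the 10 genes was 153, 122 and 138 CPM in the shRad21_2 libraries and 151, 374 and 375 CPM in the shRad21_1 libraries, against 568, 584 and 589 CPM in the shNT libraries. All shRad21_2 and shRad21_1 libraries were thus below all shNT libraries, and shRad21_1 replicate 1 sat among the shRad21_2 libraries. The makeup of the sum differed as well. Car3 held 12.6% of it in shRad21_2 and 55.0% in shRad21_1, against 61.9% in shNT. Car2 held 61.5% in shRad21_2 and 36.4% in shRad21_1, against 20.7% in shNT. Car12 held 20.2% in shRad21_2 and 1.10% in shRad21_1, against 0.570% in shNT. In bulk RNA, fewer cells of a type and less RNA per cell cannot be told apart, and this holds for every gene below.

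**Figure D1:**
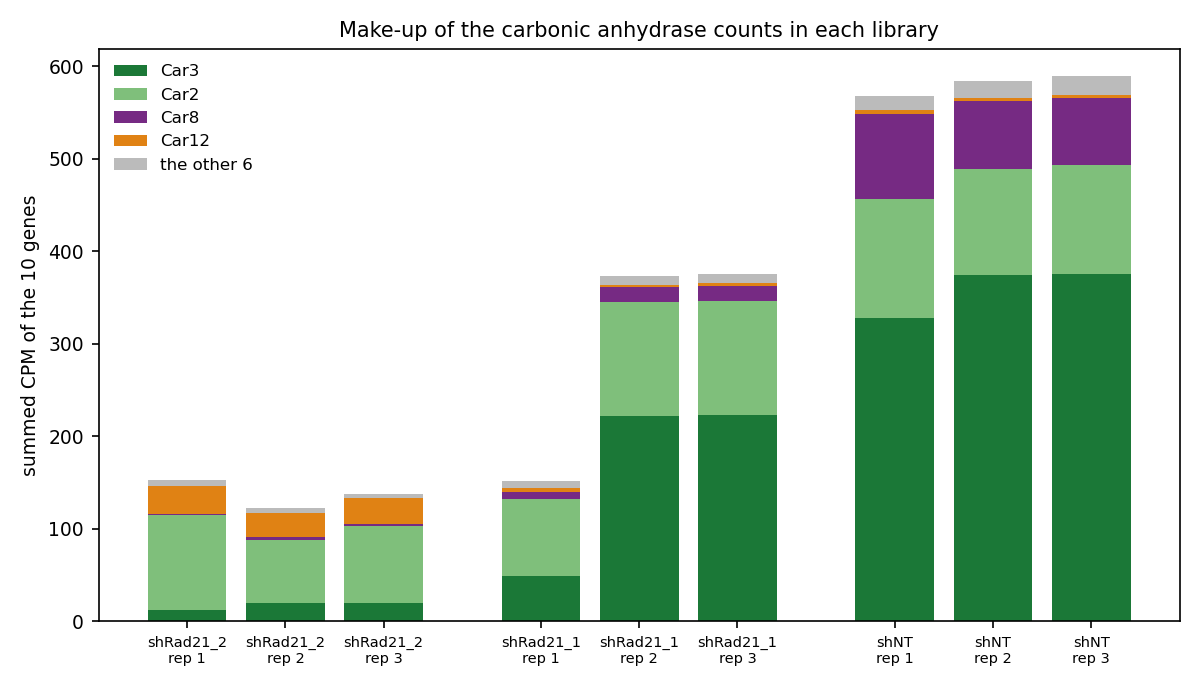
Summed level of the 10 carbonic anhydrase genes in each library, in CPM, stacked by gene, with shRad21_2 left, shRad21_1 in the middle and shNT right. Car2 makes up most of the shRad21_2 bars, Car3 most of the shNT bars, and the bar of shRad21_1 replicate 1 (151 CPM) is as low as those of shRad21_2 (122 to 153 CPM).

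Genes were tested in 1 edgeR quasi-likelihood fit over 13560 genes and called at a Benjamini-Hochberg adjusted p under 0.05. For shRad21_2 against shNT, 8 of the 8 tested members were called, 1 higher and 7 lower, where 43.6% of all tested genes were called (21.1% higher and 22.5% lower). With a stricter filter, which Car14 did not pass, 7 of 7 were called, 1 higher and 6 lower. Among the unlisted symbols, Car7 and Car15 were tested as well and were called in no comparison. For shRad21_2 against shNT their log2 values were 0.31 and 0.03 (edgeR adjusted p = 0.675 and 0.962). The members' median log2 fold change was -2.28, against 0.01 over all genes, and for 8 members the libraries of the groups did not overlap, as for 55.9% of all tested genes. For shRad21_1 against shNT, 2 of 8 were called, both lower, where 9.82% of all genes were called (4.19% higher and 5.63% lower). There the median was -0.93, against 0.01 over all genes, and 4 members did not overlap, as 40.2% of all tested genes did not. For shRad21_2 against shRad21_1, 4 of 8 were called, 1 higher and 3 lower, where 26.3% of all genes were called (11.9% higher and 14.4% lower). The median was -0.83, against 0.00 over all genes, and 5 members did not overlap, as 39.2% of all tested genes did not. These counts describe a list made with results known, and both hairpin comparisons with shNT share the same 3 shNT libraries. The split of all calls depended on scaling: with library totals alone, 38.0% of the calls in shRad21_2 against shNT were higher, against 48.4% with TMM, and between the hairpins 32.2% were higher, against 45.1% with TMM.

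**Figure D2:**
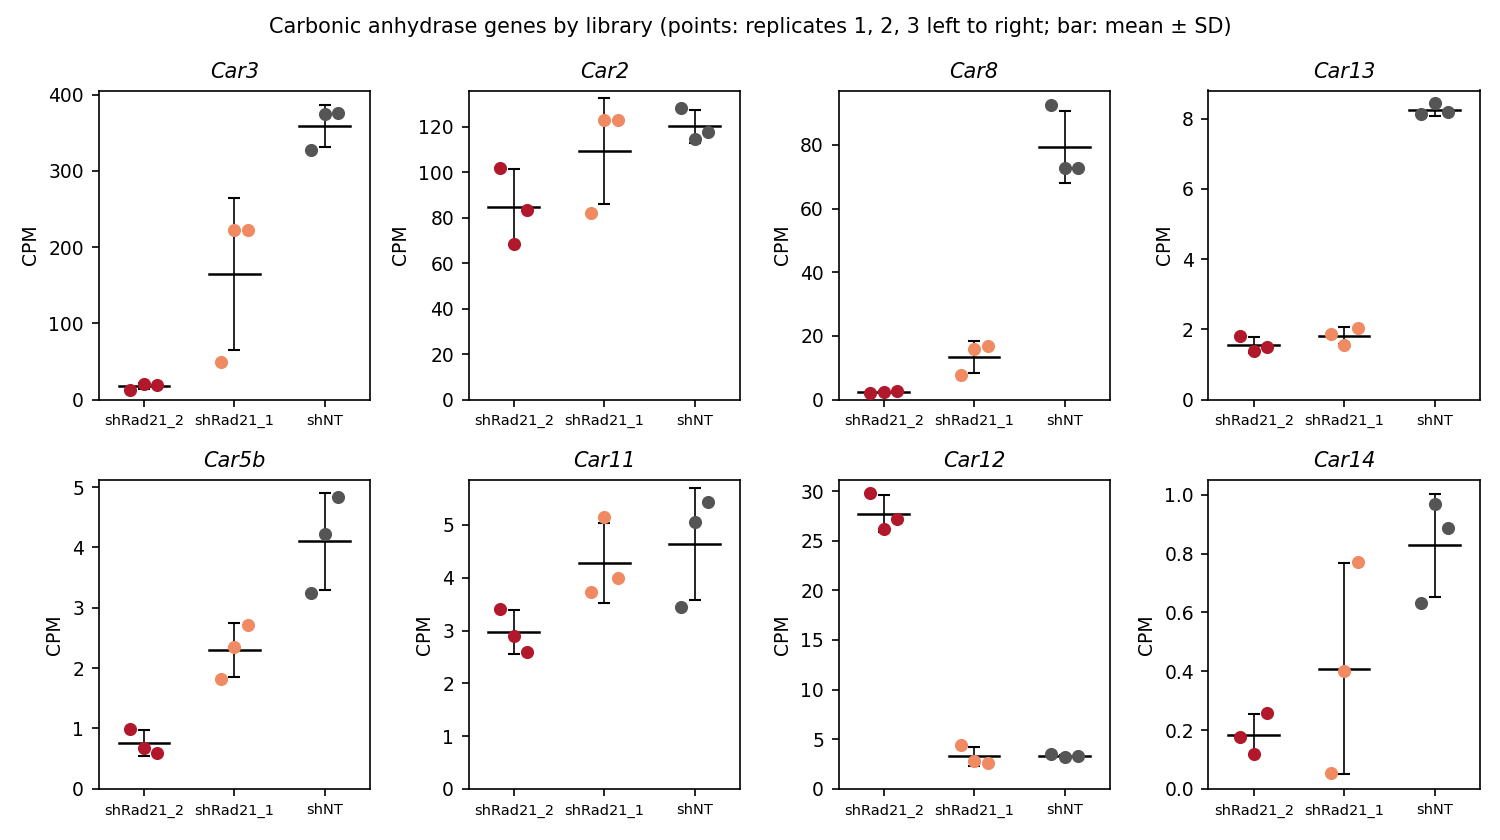
CPM of the 8 tested genes among the 10 listed carbonic anhydrase genes in every library, 1 panel per gene with its own linear axis from 0. Points are libraries (replicates 1 to 3 left to right), and bars are mean ± SD, with shRad21_2 left, shRad21_1 in the middle and shNT right. Among these genes only Car12 has its highest points in shRad21_2 (26.2 to 29.8 CPM), and the shRad21_2 points of Car3 and Car8 lie near 0 beside those of shNT.

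Car3, the cytosolic isozyme of low activity known from muscle, fat and liver, was the most abundant member in shNT cells. It had 12.6, 19.9 and 19.6 CPM in shRad21_2 and 49.6, 222 and 223 CPM in shRad21_1, against 328, 375 and 376 CPM in shNT. The 3 groups did not overlap, and shRad21_1 replicate 1 lay well below its other 2 libraries. Under shRad21_2 it was 20.7-fold lower than in shNT (log2 -4.37, SE 0.50, edgeR adjusted p = 0.000124) and lower than under shRad21_1 (log2 -3.25, SE 0.48, edgeR adjusted p = 0.00136). Under shRad21_1 the difference from shNT did not pass (log2 -1.12, SE 0.44, edgeR adjusted p = 0.134), with a 95% interval of -2.09 to -0.15. Without shRad21_1 replicate 1 it was smaller and passed (log2 -0.69, edgeR adjusted p = 0.0201), and with the replicate number as a block it passed as well (edgeR adjusted p = 0.0466). Markers of muscle and fat, where Car3 is best known, were close to absent: their summed level was 0.880 to 1.24 CPM in shRad21_2, 0.870 to 1.33 CPM in shRad21_1 and 1.07 to 1.23 CPM in shNT, with Cfd at 0 throughout and 2 of 10 tested.

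Car2, the cytosolic isozyme of high activity, differed less between the groups than Car3. It had 102, 68.4 and 83.4 CPM in shRad21_2 and 82.3, 123 and 123 CPM in shRad21_1, against 128, 114 and 118 CPM in shNT. All shRad21_2 libraries lay below the shNT libraries, and the shRad21_1 libraries spanned both ranges. The fall under shRad21_2 was 1.42-fold (log2 -0.51, SE 0.17, edgeR adjusted p = 0.0360). That call was lost on leaving out any shNT library (edgeR adjusted p = 0.0676 to 0.0999), shRad21_2 replicate 2 (log2 -0.37, edgeR adjusted p = 0.119) or shRad21_2 replicate 3 (edgeR adjusted p = 0.0940). It was also lost with the replicate block (edgeR adjusted p = 0.0548) and with the close pairs summed (edgeR adjusted p = 0.0802). Under shRad21_1 the log2 difference from shNT was -0.14, with a 95% interval of -0.52 to 0.24. Between the hairpins it was -0.37 (edgeR adjusted p = 0.137), and -0.54 without shRad21_1 replicate 1, which passed (edgeR adjusted p = 0.0132). Red cell markers, a source in which Car2 is abundant, summed to at most 0.544 CPM in any library, and 5 of the 9 in the table, all globins, were at 0 in every library.

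Car13, another cytosolic enzyme, was low under both hairpins. It had 1.82, 1.38 and 1.48 CPM in shRad21_2 and 1.88, 1.55 and 2.05 CPM in shRad21_1, against 8.14, 8.45 and 8.18 CPM in shNT. Every hairpin library was below every shNT library, and the hairpin groups overlapped. Against shNT it was 5.27-fold lower under shRad21_2 (log2 -2.40, SE 0.18, edgeR adjusted p = 9.85e-06) and 4.52-fold lower under shRad21_1 (log2 -2.18, SE 0.17, edgeR adjusted p = 0.000346). Between the hairpins the log2 difference was -0.22 (edgeR adjusted p = 0.391), with a 95% interval of -0.62 to 0.18. In shRad21_1 replicate 1, the library that stood apart for Car3, Car13 lay at -1.88 log2 units from the shNT mean, between the -2.10 and -1.78 of replicates 2 and 3 (on log2 of CPM + 0.5).

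The 3 cytosolic genes lie side by side on chromosome 3 (coordinates on GRCm38/mm10, GENCODE M21). Car13 spans chr3:14641727-14663002, Car3 chr3:14863512-14872523 and Car2 chr3:14886273-14900770, all on the plus strand. Between Car13 and Car3 lies Car1, at chr3:14766216-14808368 on the minus strand, which had 38 counts in all and was not tested. The gap between the Car3 and Car2 bodies is 13.75 kb, and that between Car13 and Car3 is 200.5 kb. Under shRad21_2 these neighbours differed in size of change, from -0.51 (Car2) to -4.37 (Car3) in log2 units. Below Car13, 1810022K09Rik was 30.4 kb away and did not pass in shRad21_2 against shNT (log2 0.21, edgeR adjusted p = 0.0826). Next beyond it, E2f5, a repressive E2F factor (log2 -0.61, edgeR adjusted p = 0.00742), and Lrrcc1, a centrosome protein (log2 -0.54, edgeR adjusted p = 0.00964), fell there by less than Car13. Those 2 genes were named after their values were seen.

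**Figure D3:**
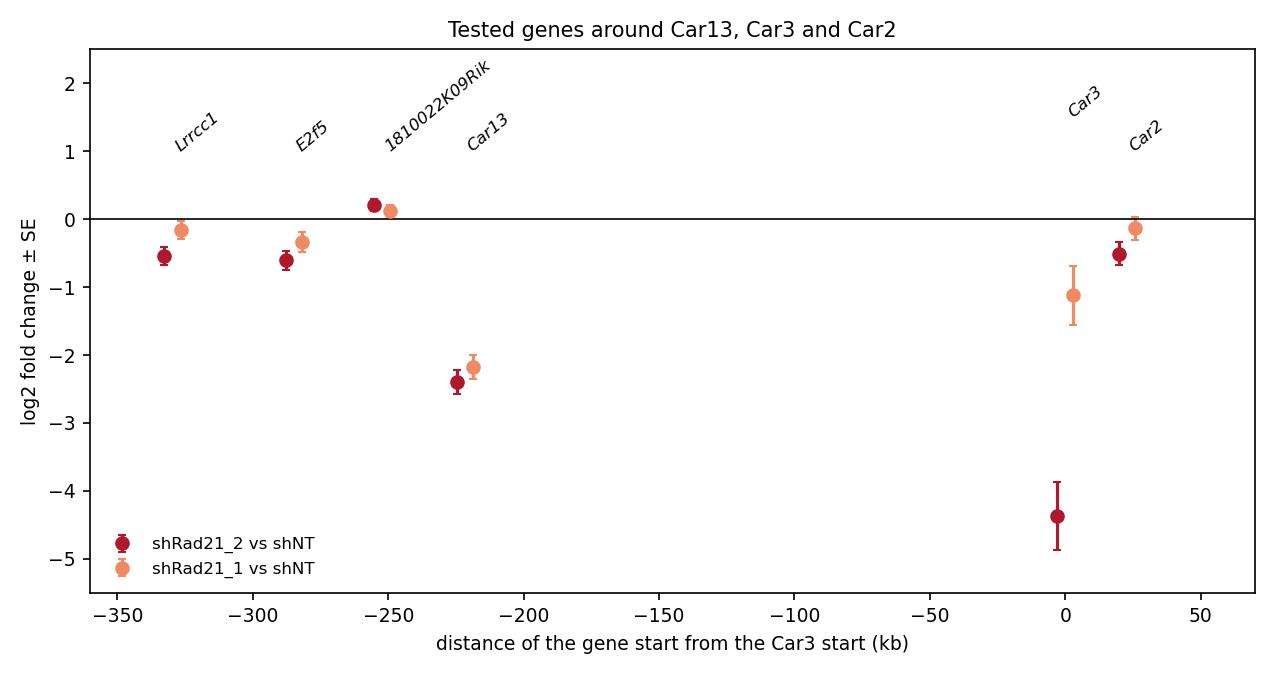
Log2 fold change against shNT of the tested genes around the chromosome 3 carbonic anhydrase cluster, plotted by the distance of each gene's start from the Car3 start in kb, with shRad21_2 in dark red, shRad21_1 in orange and bars of ± SE. Car13 lies at -2.40 and -2.18 for the hairpins, Car3 at -4.37 for shRad21_2 and -1.12 for shRad21_1, and the flanking genes between -0.61 and 0.21.

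Car8, the catalytically inactive partner of the inositol trisphosphate receptor, had the largest fold change of the tested members. It had 1.99, 2.40 and 2.68 CPM in shRad21_2 and 7.72, 15.8 and 16.9 CPM in shRad21_1, against 92.6, 72.7 and 72.8 CPM in shNT. The 3 groups were fully separate, in the order of their Rad21 levels. Car8 was 33.7-fold lower under shRad21_2 (log2 -5.08, SE 0.30, edgeR adjusted p = 3.30e-06) and 5.89-fold lower under shRad21_1 (log2 -2.56, SE 0.26, edgeR adjusted p = 0.000634). It was also 5.73-fold lower under shRad21_2 than under shRad21_1 (log2 -2.52, SE 0.28, edgeR adjusted p = 0.000298). All 3 calls held under each of the 16 alternatives run. Car8 lies at chr4:8143362-8239041 on the minus strand. The nearest tested gene, Rab2a, a small GTPase of the secretory pathway, starts 296.6 kb away and did not pass (log2 0.12, edgeR adjusted p = 0.195, shRad21_2 against shNT).

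Car11, the other inactive member found here, is a secreted protein with small differences. It had 3.41, 2.90 and 2.60 CPM in shRad21_2 and 3.72, 5.15 and 3.99 CPM in shRad21_1, against 3.44, 5.05 and 5.43 CPM in shNT. The highest shRad21_2 library lay just under the lowest shNT library. The fall under shRad21_2 was 1.56-fold (log2 -0.64, SE 0.22, edgeR adjusted p = 0.0359). It was lost without shNT replicate 2 or 3 (edgeR adjusted p = 0.114 and 0.139), without shRad21_2 replicate 2 or 3 (0.0837 and 0.111), with the replicate block (0.0509) and with the close pairs summed (0.138). Under shRad21_1 the log2 difference was -0.12, with a 95% interval of -0.59 to 0.36. Between the hairpins it was -0.53 (edgeR adjusted p = 0.102).

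Car11 lies at chr7:45699843-45704682, 0.406 kb from Dbp, a PAR-domain transcription factor of the circadian output. Dbp averaged 3.31 ± 0.578 CPM in shRad21_2 and 20.2 ± 13.8 CPM in shRad21_1, against 28.4 ± 12.8 CPM in shNT (SD, n = 3 each). It fell under shRad21_2 (log2 -3.10, SE 0.63, edgeR adjusted p = 0.00324), by more than Car11 did at its side. Mamstr, 53.3 kb away on the other side, did not pass there (log2 -1.29, edgeR adjusted p = 0.0512).

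Car5b, the mitochondrial enzyme, was lowest under shRad21_2 and intermediate under shRad21_1. It had 0.997, 0.674 and 0.599 CPM in shRad21_2 and 1.82, 2.35 and 2.71 CPM in shRad21_1, against 3.24, 4.22 and 4.83 CPM in shNT, and the groups did not overlap. It was 5.35-fold lower under shRad21_2 than in shNT (log2 -2.42, SE 0.27, edgeR adjusted p = 0.000109) and 2.99-fold lower than under shRad21_1 (log2 -1.58, SE 0.27, edgeR adjusted p = 0.00307). Under shRad21_1 the difference from shNT missed the threshold (log2 -0.84, SE 0.25, edgeR adjusted p = 0.0606). It passed with DESeq2 (adjusted p = 0.0223), with limma-voom (adjusted p = 0.0413) and without the first libraries of shRad21_1 and shNT (edgeR adjusted p = 0.0495). Car5b lies at chrX:163976822-164027997 on the minus strand. Its flanking genes were higher under shRad21_2: Zrsr2, a splicing factor of minor introns, 18.2 kb away (log2 0.42, edgeR adjusted p = 0.00213), and Siah1b, a ubiquitin ligase, 42.7 kb away (log2 0.33, edgeR adjusted p = 0.0363). The call of Siah1b was lost without any 1 shNT library, without shRad21_2 replicate 2 or 3 and with the close pairs summed.

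Car12, a transmembrane enzyme, was the member that rose. It had 29.8, 26.2 and 27.2 CPM in shRad21_2 and 4.40, 2.83 and 2.63 CPM in shRad21_1, against 3.46, 3.16 and 3.28 CPM in shNT. The shRad21_2 libraries stood far above all others, and the shRad21_1 libraries surrounded those of shNT. Car12 was 8.39-fold higher under shRad21_2 than in shNT (log2 3.07, SE 0.19, edgeR adjusted p = 3.81e-06) and 8.43-fold higher than under shRad21_1 (log2 3.08, SE 0.19, edgeR adjusted p = 1.76e-05). Under shRad21_1 the log2 difference from shNT was -0.01 (edgeR adjusted p = 0.987), with a 95% interval of -0.42 to 0.40, so a rise of the size seen under shRad21_2 lay outside it. Replicate 1 of shRad21_1, at 4.40 CPM the highest of its group, remained far from the shRad21_2 libraries, and without it the difference was -0.27 and did not pass. Car12 lies at chr9:66713686-66766845 on the plus strand. Aph1b, a gamma-secretase subunit 8.36 kb away, did not pass (log2 -0.24, edgeR adjusted p = 0.0535), and Usp3, a deubiquitinase 120.5 kb away on the other side, was higher (log2 0.48, edgeR adjusted p = 0.00239), both for shRad21_2 against shNT.

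Car14, the transmembrane enzyme known from neurons, retina and kidney, was scarce. It had 8, 4 and 9 counts in shRad21_2 and 2, 15 and 29 counts in shRad21_1, against 23, 41 and 40 counts in shNT. In CPM that was 0.184 ± 0.0700 in shRad21_2 and 0.409 ± 0.358 in shRad21_1, against 0.829 ± 0.175 in shNT (SD, n = 3 each). Its fall under shRad21_2 passed (log2 -2.16, SE 0.66, edgeR adjusted p = 0.0244), and was lost without shNT replicate 2 or 3, without shRad21_2 replicate 1 or 2, or with the close pairs summed (edgeR adjusted p = 0.0656 to 0.0800). Car14 reached the level of the low-count filter in 3 shNT and 0 shRad21_2 libraries, so the filter itself favoured a fall. Under shRad21_1 the log2 difference was -1.02, with a 95% interval of -2.36 to 0.33. Between the hairpins it was -1.14 (edgeR adjusted p = 0.256), and -1.65 without shRad21_1 replicate 1, which passed (edgeR adjusted p = 0.0219). Car14 lies at chr3:95897768-95904691 and overlaps Aph1a on the other strand by 521 bases. No source used here states the strand setting of the counting, so reads there cannot be told apart, and Aph1a had 121 ± 5.68 CPM in shRad21_2 and 132 ± 7.96 CPM in shRad21_1, against 132 ± 6.88 CPM in shNT.

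Car9 and Car4 were at or under the limit of counting in most libraries. Car9 had 3, 1 and 0 counts in shRad21_2 and 0, 9 and 10 counts in shRad21_1, against 2, 3 and 0 counts in shNT. Summed over libraries and set against library totals, the ratio of shRad21_1 to shNT was 4.21 (19 against 5 counts), with a 95% counting interval of 1.52 to 14.4, but replicate 1 of shRad21_1 held 0 of those 19 counts. The ratio of shRad21_2 to shNT was 0.867 (4 against 5 counts, 0.172 to 4.03). Car4 had 0, 1 and 0 counts in shRad21_2 and 0, 1 and 0 counts in shRad21_1, against 2, 0 and 7 counts in shNT. Its ratio was 0.120 for shRad21_2 (1 against 9 counts, 0.00275 to 0.869) and 0.123 for shRad21_1 (1 against 9 counts, 0.00281 to 0.888), and 7 of the 9 shNT counts came from 1 library. The intervals are exact, cover counting error only and take no account of the spread between libraries.

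**Figure D4:**
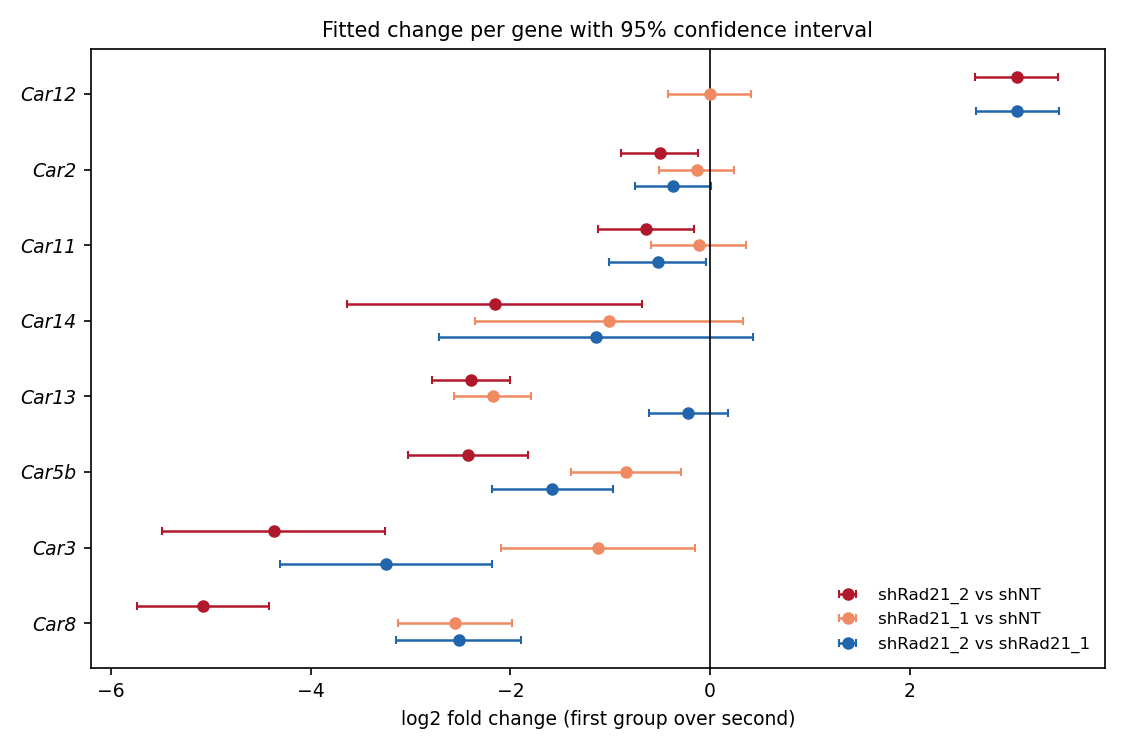
Log2 fold changes of the 8 listed carbonic anhydrase genes that were tested, with 95% confidence intervals from the edgeR fit, for shRad21_2 against shNT (dark red), shRad21_1 against shNT (orange) and shRad21_2 against shRad21_1 (blue). Car8 (-5.08) and Car12 (3.07) mark the ends for shRad21_2 against shNT, and the Car13 values for the hairpins (-2.40 and -2.18) have overlapping intervals, unlike those of Car8 (-5.08 and -2.56).

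Levels can be compared between genes per length of exon. In shRad21_2, Car2 led with 34.9 CPM per kb of exon, followed by Car3 (6.07), Car12 (3.65), Car11 (1.54), Car13 (0.678), Car8 (0.613), Car5b (0.119) and Car14 (0.0723). In shRad21_1 the order was Car3 (57.6), Car2 (45.1), Car8 (3.50), Car11 (2.23), Car13 (0.793), Car12 (0.433), Car5b (0.361) and Car14 (0.161). In shNT, Car3 led with 125 CPM per kb, followed by Car2 (49.6), Car8 (20.6), Car13 (3.59), Car11 (2.41), Car5b (0.646), Car12 (0.435) and Car14 (0.326). Car2 thus stood above Car3 in shRad21_2 and below it in shNT. Car12 moved to the third place in shRad21_2, and Car8 dropped below Car11. Neighbours in these orders whose libraries overlapped per kb, so that their order is not beyond the spread, were Car13 and Car8, and Car5b and Car14, in shRad21_2. In shRad21_1 they were Car3 and Car2, Car8 and Car11, Car12 and Car5b, and Car5b and Car14.

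Lists of cell type markers were set beside these genes. Which cells expressed the listed markers was not tested. Against shNT, 21.1% of all tested genes were higher and 22.5% lower under shRad21_2, and 4.19% were higher and 5.63% lower under shRad21_1. Of the astrocyte markers, 11 of 13 tested were lower in shRad21_2 than in shNT and 0 higher (1 higher by DESeq2, and 1 at an unadjusted edgeR p under 0.05), with a median log2 fold change of -2.55. Their summed level was 1070 to 1083 CPM in shRad21_2 and 1561 to 2437 CPM in shRad21_1, against 2483 to 2534 CPM in shNT. The low value in shRad21_1 came from replicate 1, in which the median astrocyte marker lay at -1.12 log2 units from its shNT mean, against -0.04 and 0.00 in replicates 2 and 3. Slc1a3, the glutamate transporter GLAST, averaged 585 ± 32.1 CPM in shRad21_2 and 1055 ± 185 CPM in shRad21_1, against 1129 ± 20.0 CPM in shNT (SD, n = 3 each). Within shRad21_1, Car3 was likewise lowest in replicate 1, at -2.84 against -0.69 and -0.68 in replicates 2 and 3, and Car8 at -3.27 against -2.28 and -2.19. Car13 lay at -1.88 in replicate 1 and at -2.10 and -1.78 in replicates 2 and 3. For shRad21_1 against shNT, 0 of 13 astrocyte markers were called by edgeR, DESeq2 or limma-voom, and 4 were lower at an unadjusted p under 0.05 in edgeR.

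The next lists stand beside the same shares of all tested genes, 22.5% lower and 21.1% higher under shRad21_2, and 5.63% lower under shRad21_1. Of the oligodendrocyte lineage markers, 7 of 10 tested were lower in shRad21_2 than in shNT and 1 higher (median log2 -0.82). Their summed level was 2950 to 3396 CPM in shRad21_2 and 3350 to 3518 CPM in shRad21_1, against 3084 to 3211 CPM in shNT. Of the neuron markers, 5 of 11 were lower and 1 higher (median -0.56), with summed levels of 1073 to 1187, 1164 to 1251 and 1214 to 1330 CPM in the same groups. Choroid plexus and ependyma markers, among which Foxj1 drives motile cilia, were lower in 3 of 4 tested under shRad21_2 and in 3 of 4 under shRad21_1, and together amounted to 31.7 to 38.0 CPM in shRad21_2 and 35.4 to 53.4 CPM in shRad21_1, against 74.0 to 81.3 CPM in shNT. Of the 3 calls under shRad21_1, those of Aqp1 and Enpp2 were lost on leaving out single libraries and with the close pairs summed. Endothelial and pericyte markers summed to at most 5.52 CPM and microglia markers to at most 3.16 CPM in any library, with Aif1, Cx3cr1 and C1qa at 0. Both were lower under shRad21_2, in 3 of 4 and 1 of 1 tested genes. Of the 3, Flt1 and Pdgfrb were scarce even in shNT (0.315 and 0.313 CPM), and the call of Pdgfrb was lost in 8 of 14 alternatives. The shRad21_2 means of Flt1 (0 CPM), Pdgfrb (0.0605 CPM) and Aqp1 (0.240 CPM) were under the filter's level of 0.271 CPM. Their shNT means were above it, so the filter itself favoured a fall of these genes. Among the neural stem cell markers, 3 of 14 were higher in shRad21_2 than in shNT, Nes, Pax6 and Prom1, and 6 were lower (median -0.38). Beyond these values, the part of other cell types in the carbonic anhydrase results was not tested.

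**Figure D5:**
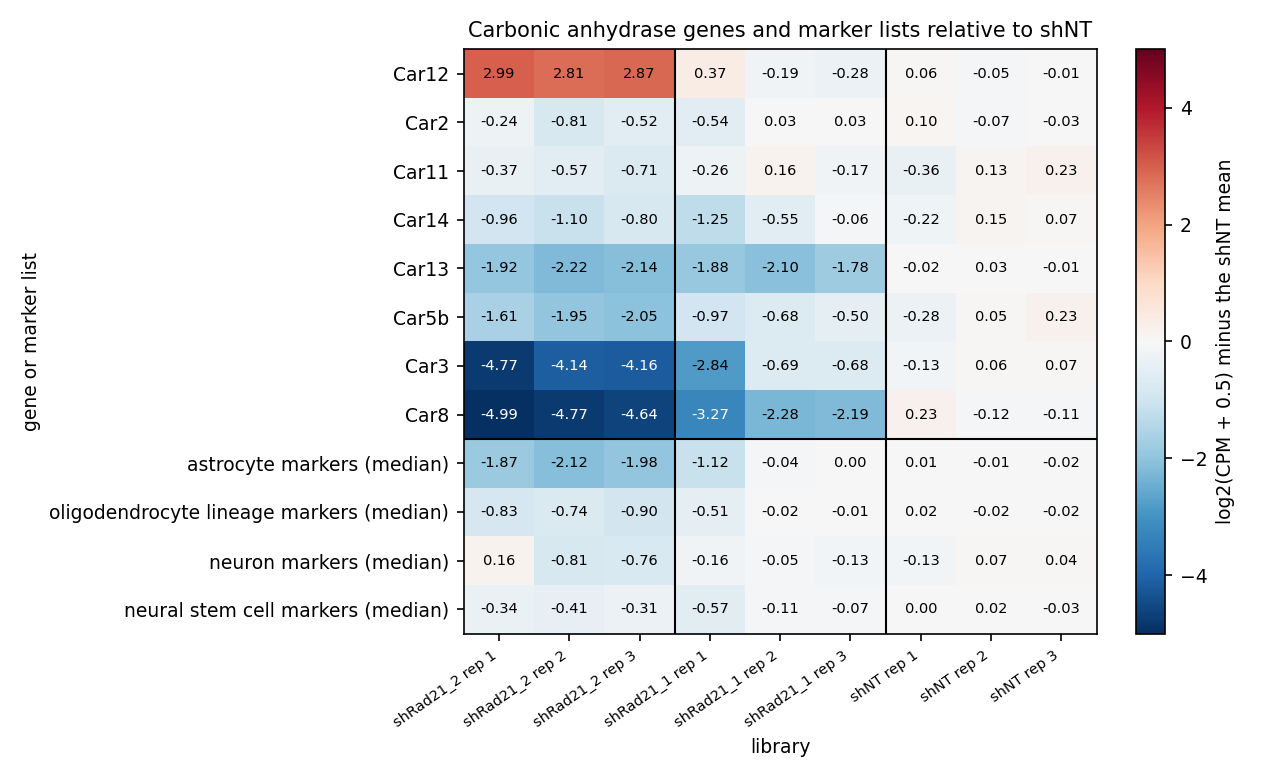
Log2 of CPM + 0.5 of each listed carbonic anhydrase gene that was tested, and the median of 4 marker lists, in every library relative to the shNT mean, written in each cell and coloured from blue (lower) to red (higher), with shRad21_2 left, shRad21_1 in the middle and shNT right. Car3, Car8 and the astrocyte markers are lower in shRad21_1 replicate 1 than in replicates 2 and 3, whereas Car13 is at about the same level in all 3 (-1.88, -2.10 and -1.78).

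Carbonic anhydrases supply transporters that carry bicarbonate, protons and lactate. Of 7 bicarbonate transporters tested, 1 was higher and 2 were lower in shRad21_2 than in shNT (median log2 -0.33), and 0 were called in shRad21_1 against shNT by edgeR, DESeq2 or limma-voom (2 higher and 1 lower at an unadjusted edgeR p under 0.05). Over all tested genes, 21.1% were higher and 22.5% lower in shRad21_2 against shNT, so the count under shRad21_2 was near the background. Slc4a4, the electrogenic sodium bicarbonate cotransporter, which is also on the astrocyte list, averaged 33.5 ± 7.23 CPM in shRad21_2 and 159 ± 60.1 CPM in shRad21_1, against 196 ± 6.26 CPM in shNT (SD, n = 3 each; log2 -2.55, SE 0.27, edgeR adjusted p = 7.80e-05 for shRad21_2). Slc4a3, an anion exchanger, was lower (log2 -0.46, edgeR adjusted p = 0.0131) but was no longer called with the close pairs summed, nor without replicate 2 or 3 of shNT. Slc4a2, another anion exchanger, was higher (log2 0.66, edgeR adjusted p = 0.0192) and lost its call without replicate 1 of shRad21_2 or of shNT.

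Against shNT, 21.1% of all tested genes were higher and 22.5% lower under shRad21_2, and 4.19% were higher under shRad21_1. Of 9 sodium/proton exchangers and their partners tested, 4 were lower under shRad21_2 (median log2 -0.29). None was higher by edgeR, DESeq2 or limma-voom, or at an unadjusted edgeR p under 0.05. Slc9a7, the exchanger of the Golgi, had the smallest p of them, with 5.02 ± 0.608 CPM in shRad21_2 and 13.6 ± 0.877 CPM in shRad21_1, against 17.2 ± 1.01 CPM in shNT (log2 -1.77, SE 0.12, edgeR adjusted p = 7.16e-06 for shRad21_2). Of 7 genes of monocarboxylate transport, 2 were higher under each hairpin against shNT, and 0 were lower by edgeR, DESeq2 or limma-voom or at an unadjusted edgeR p under 0.05. These were Emb, a partner of the transporters (log2 1.64 for shRad21_2 and 0.95 for shRad21_1), and Ldha, lactate dehydrogenase A (0.66 and 0.46). Both calls under shRad21_1 were lost on leaving out replicate 2 or 3 of shRad21_1 or of shNT, and with the close pairs summed.

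Because Car9 and Car12 are known as hypoxia-inducible in human tumour cells, 24 other hypoxia-inducible genes were counted. Under shRad21_2, 3 were higher (Ldha, Hk2 and Mxi1) and 3 were lower (Slc2a1, Egln3 and Anxa1), with a median log2 fold change of -0.16. Slc2a1, the glucose transporter GLUT1, had 34.3 ± 2.27 CPM in shRad21_2 and 52.8 ± 10.9 CPM in shRad21_1, against 56.6 ± 3.27 CPM in shNT (log2 -0.72, SE 0.14, edgeR adjusted p = 0.00253 for shRad21_2). Under shRad21_1, 2 were higher (Ldha and Hk2), and 0 were lower by edgeR, DESeq2 or limma-voom or at an unadjusted edgeR p under 0.05, with a median of 0.24. By library, the median hypoxia-inducible gene lay at -0.13, 0.35 and 0.32 log2 units from its shNT mean in shRad21_1, the group whose libraries had 0, 9 and 10 Car9 counts. In shRad21_2 it lay at -0.13, -0.27 and -0.07 (3, 1 and 0 Car9 counts), against 0.21, -0.09 and -0.11 in shNT (2, 3 and 0 Car9 counts). Of 7 hypoxia sensing genes, 2 were higher and 2 lower under shRad21_2, among them Epas1, the factor HIF-2α, at 8.94 ± 1.09 CPM in shRad21_2 and 16.8 ± 3.12 CPM in shRad21_1, against 24.4 ± 1.35 CPM in shNT (log2 -1.45, SE 0.15, edgeR adjusted p = 6.59e-05 for shRad21_2). Car12 rose under shRad21_2, where 3 of the 24 hypoxia-inducible genes were higher and 3 lower. Over all tested genes, 21.1% were higher and 22.5% lower there, and 4.19% were higher under shRad21_1. A link of Car9 or Car12 with these genes was not tested.

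Of 17 tested genes of calcium release from stores, the process on which Car8 acts, 3 were higher and 5 lower under shRad21_2 (median log2 -0.21), and 1 was higher and 2 lower under shRad21_1. The shares of all tested genes were 21.1% higher and 22.5% lower under shRad21_2, and 4.19% and 5.63% under shRad21_1. Itpr1, the receptor that Car8 binds, did not pass under either hairpin (log2 0.16 for shRad21_2 and 0.00 for shRad21_1), and was named for that partnership after its values were seen. Atp2a3, a calcium pump of the store, fell under both hairpins, with 0.324 ± 0.0914 CPM in shRad21_2 and 0.197 ± 0.0816 CPM in shRad21_1, against 1.83 ± 0.694 CPM in shNT (log2 -2.49 and -3.20). Its shRad21_1 mean was under the filter's level of 0.271 CPM, so the filter itself favoured a fall there. Ahcyl2, a relative of a protein that competes for the receptor, fell under shRad21_2 (log2 -0.70, SE 0.10, edgeR adjusted p = 0.000500). Its fall under shRad21_1 (log2 -0.39) was lost on leaving out any 1 library of shRad21_1 or shNT, and with the close pairs summed.

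Within the family, log2 levels over the 9 libraries ran together for Car3 and Car8 (Pearson r = 0.953), Car3 and Car5b (0.947) and Car5b and Car8 (0.948), and against each other for Car3 and Car12 (-0.928). These are descriptions over 9 libraries that fall into 3 groups and share their scaling. Among 11662 genes compared outside the family, those most like Car8 were Cacng8 (0.994), Cmtm6 (0.993), Gpr37l1 (0.993), Slc17a5 (0.992) and Itm2c (0.992). Gpr37l1, an orphan receptor of astrocytes, averaged 0.197 ± 0.0405 CPM in shRad21_2 and 2.82 ± 1.61 CPM in shRad21_1, against 13.3 ± 0.550 CPM in shNT, a larger fall than that of Car8 (log2 -6.03 for shRad21_2 against shNT). Those most like Car3 were Arhgef26 (0.999), Sfxn5 (0.998), Paqr8 (0.996), B4gat1 (0.995) and Mycl (0.995). Paqr8 averaged 6.10 ± 0.842 CPM in shRad21_2 and 49.0 ± 28.7 CPM in shRad21_1, against 115 ± 3.15 CPM in shNT.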

How the data were processed

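RNA-seq of mRNA from 9 libraries in 3 groups was analysed from a single table of counts per gene symbol, which the authors deposited as raw whole numbers. The submitters' processing notes name FastQC, Trim Galore and cutadapt for the reads, Bowtie2 with the mm10 build for alignment, and RSEM for counting. For versions, annotation, strand setting and the rounding of RSEM estimates, nothing is stated in those sources. The counts went into edgeR 4.0.16 (quasi-likelihood test in R 4.3.3; TMM, filterByExpr by group with a minimum of 10 counts), all 9 libraries in 1 fit of 3 group means, two-sided, with Benjamini-Hochberg adjustment over 13560 genes and a threshold of 0.05. Of 24503 gene rows, 6715 were 0 in every library. DESeq2 1.42.0 and limma 3.58.1 (voom) were alternatives, with other scalings, filters, sample sets and left-out libraries. Levels are CPM on TMM-scaled totals. Positions and exon lengths come from GENCODE M21, and promoter windows from RefSeq. The members and lists were chosen with earlier results of these data known. From each list, at most the 3 genes with the smallest p in shRad21_2 against shNT are named with values. Neighbours are the nearest tested genes within 500 kb, and likeness names the 5 genes with the highest r. On simulated counts for shRad21_2 against shNT (13448 genes), 78% of 2-fold and 99% of 4-fold changes were recovered, and 10 unchanged genes were called. Only 200 genes were changed there, far fewer than were called in the data. All 200 had a mean of at least 1 CPM, which Car14 did not reach. The values of 1 gene of the listed exchangers are not reported here.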

Additional observations from a re-analysis of the deposited data

Results flagged for a closer look

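In 4 carbonic anhydrase genes the hairpins against Rad21 differed from each other, by the edgeR test of shRad21_2 against shRad21_1. The log2 difference was -3.25 for Car3, -1.58 for Car5b and -2.52 for Car8, each lower under shRad21_2, and 3.08 for Car12, higher under shRad21_2. For each of them all 3 shRad21_2 libraries lay on 1 side of all 3 shRad21_1 libraries. Rad21 itself was lower under shRad21_2 than under shRad21_1 (log2 -1.08), so the hairpin and the depth of the knockdown cannot be told apart.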

How the results depend on the processing

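Of 380 values of single members recomputed under the alternatives, 351 kept their side of the threshold, 18 lost a call and 11 gained one. No called value changed sign, and 7 values that were not called did, all for shRad21_1 against shNT and all to small positive log2 values. These were Car11 (0.01 without shNT replicate 3), Car2 (0.03 and 0.08 without first libraries) and Car12 (0.03 to 0.13 in 4 alternatives). Calls of Car8 and Car13 (shRad21_1 against shNT), of Car3, Car5b, Car8, Car12 and Car13 (shRad21_2 against shNT) and of Car3, Car5b, Car8 and Car12 (between the hairpins) held in every alternative run. The 8 members called for shRad21_2 against shNT became 5 with the close pairs summed, 6 with the replicate number as a block and 5 to 7 on leaving out 1 library (5 without shNT replicate 2, shNT replicate 3 or shRad21_2 replicate 2). The 2 called for shRad21_1 against shNT became 4 without the first libraries of both groups, and 2 to 3 on leaving out 1 library. The 4 called between the hairpins became 7 without those first libraries, and 4 to 6 on leaving out 1 library. Over all genes, shRad21_1 against shNT gave 2042 calls with DESeq2, 130 with the close pairs summed and 460 to 1599 without 1 library. For shRad21_2 against shNT the numbers were 3707 with the pairs summed and 4263 to 5610 without 1 library. Between the hairpins they were 2233 in a fit of those 2 groups, 1270 with the pairs summed and 2045 to 4486 without 1 library. Leaving out a library also means fewer samples, and the cause of the other shifts was not tested. Same-numbered libraries of different groups deviated together with correlations from 0.000435 to 0.287, 5 of 9 over 0.1. For other-numbered libraries they ran from -0.264 to 0.218, 3 of 18 over 0.1. The main fit did not take the numbers as pairs, and the fit with the replicate number as a block was an alternative. Depth limits Car4, Car9 and Car14, whose counts per library were between 0 and 41.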
